A study of Homo sapiens with 12 samples.

Results

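The genes described here are the 5 guanylate binding protein (GBP) genes GBP1, GBP2, GBP3, GBP4 and GBP5, taken by symbol from the 38478 genes of the expression table and compared over all its samples. Cells of the human multiple myeloma line OPM-1, which the study groups with the lenalidomide-insensitive lines, were kept for 48 h in 4 conditions with 3 biological replicates each, and poly(A) RNA of the 12 samples was sequenced. The controls received DMSO, the second group lenalidomide (LEN) at 0.1 μM, the third AI-10-104, an inhibitor of the RUNX transcription factors, at 1 μM, and the last group both drugs (LEN+AI-10-104). Levels are RPKM, reads scaled by gene length and by the reads counted on genes in the sample, and the reads behind each value were computed back from them. All samples are from a single line at a single time.

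Guanylate binding proteins are large GTPases that interferon gamma induces strongly in many cell types in part through the transcription factor IRF1. They assemble on the membranes of intracellular pathogens and of the vacuoles that hold them, and they help to start the caspase response to bacterial lipopolysaccharide. GBP1, GBP2 and GBP5 end in a CaaX sequence, to which a prenyl group is attached for membrane binding. Lenalidomide directs the ubiquitin ligase substrate receptor cereblon to the Ikaros factors IKZF1 and IKZF3, and loss of these factors has been linked to expression of interferon-stimulated genes in myeloma cells.

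Between 16352548 and 31386210 reads were counted on genes per sample, with the lowest depth in the combination. The plasma cell markers SDC1, TNFRSF17, IRF4, PRDM1, XBP1 and CD38 were all at 28.6 RPKM or more in every sample. Markers of other cell types were at or near 0. Of 4 B cell markers, 5 T and NK cell markers, 4 monocyte and macrophage markers and 4 fibroblast and epithelial markers, the highest value in any sample was 0.551 RPKM, for the T cell gene CD3E, and PAX5, CD3D, NKG7, FCGR3A and EPCAM were listed at 0 throughout. AI-10-104 replicate 2 stood apart from its group. Its reads differed from those of the other 2 replicates with a chi-square per degree of freedom of 7.4 and 9.64, while the pairs without it in any condition were at 6.52 or less. Without this library the number of all genes called went from 199 to 443 for AI-10-104 relative to DMSO and from 0 to 540 for the interaction of the 2 drugs, so the differences of GBP3 and GBP4 that involve AI-10-104 alone are also given without it.

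Only 1 of the 5 members was expressed at an appreciable level. GBP3 had a mean of 3.18 RPKM over the 12 samples, higher than 79.1% of all genes in the table, and its 189 to 331 reads per sample make it the only member above the mean of 0.5 RPKM used as the filter for testing. GBP4 followed with a mean of 0.0433 RPKM, GBP2 with 0.0154, GBP1 with 0.0132 and GBP5 with 0.00506. The lowest GBP3 value, 2.62 RPKM, lay far above the highest GBP4 value, 0.109 RPKM, whereas the ranges of GBP4, GBP2, GBP1 and GBP5 overlapped one another. GBP3 held between 95.7% and 99.6% of the summed RPKM of the 5 genes in every sample. The family thus had a single member with at least 189 reads in every sample and 4 members with at most 11.

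The 5 genes lie together on the minus strand of chromosome 1 (GRCh38, GENCODE 44), all protein coding. GBP3 (ENSG00000117226) spans 89006679 to 89022894, GBP1 (ENSG00000117228) 89051882 to 89065360, GBP2 (ENSG00000162645) 89106132 to 89150456, GBP4 (ENSG00000162654) 89181144 to 89198942 and GBP5 (ENSG00000154451) 89256189 to 89272860. GBP2 overlaps GBP7 on the same strand. Family members share stretches of sequence that a short read may not assign, since 4.41% of the 50-base windows in GBP3 transcripts also occur in a transcript of another GBP gene, mostly GBP1, against 7.76% in GBP1, 8.82% in GBP2, 0.308% in GBP4 and 0% in GBP5. How reads matching several genes were counted is not given in the sources used here, so the few reads of GBP1 and GBP2 cannot be told apart from misassigned reads of a relative. Whether reads in shared or overlapping stretches were left out is not given either. The counts of GBP2 and GBP7 may therefore be too low, which was not tested.

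The sequences around the RefSeq starts of GBP3, GBP4 and GBP1 (GRCh38.p14, 250 bases before the start to 50 after it) are printed because GBP3 and GBP4 are the members that were called up with both drugs, and GBP1, at close to 0 reads, holds the same 10 capital letters as GBP3. Each is read 5′ to 3′ on the minus strand. Capitals mark a match to the core of the interferon-stimulated response element, which IRF family factors bind. It was searched as GAAA, any 2 bases and GAAA again, or on the other strand as TTTC, any 2 bases and TTTC. The windows are chr1:89022817-89023116 for GBP3, chr1:89198893-89199192 for GBP4 and chr1:89065159-89065458 for GBP1.
GBP3: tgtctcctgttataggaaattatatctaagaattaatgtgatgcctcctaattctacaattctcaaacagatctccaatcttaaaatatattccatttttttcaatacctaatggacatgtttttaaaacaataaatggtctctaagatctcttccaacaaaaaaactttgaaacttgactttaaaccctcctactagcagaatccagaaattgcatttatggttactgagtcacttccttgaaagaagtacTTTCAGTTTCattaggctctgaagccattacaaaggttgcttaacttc
GBP4: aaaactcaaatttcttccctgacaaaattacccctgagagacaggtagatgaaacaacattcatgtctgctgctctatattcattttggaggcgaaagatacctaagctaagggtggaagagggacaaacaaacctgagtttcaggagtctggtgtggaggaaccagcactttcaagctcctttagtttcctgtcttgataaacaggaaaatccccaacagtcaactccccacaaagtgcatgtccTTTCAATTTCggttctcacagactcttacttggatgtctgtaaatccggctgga
GBP1: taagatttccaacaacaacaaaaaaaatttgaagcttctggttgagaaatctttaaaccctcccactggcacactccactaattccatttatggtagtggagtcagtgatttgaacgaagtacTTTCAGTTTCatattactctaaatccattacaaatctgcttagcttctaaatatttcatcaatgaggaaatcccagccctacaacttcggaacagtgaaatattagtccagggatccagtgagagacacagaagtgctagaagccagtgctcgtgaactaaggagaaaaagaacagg

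The match begins 2 bases after the RefSeq start in GBP3, 4 bases before it in GBP4 and 127 bases before it in GBP1. These distances depend on the annotation. The GENCODE genes of GBP3 and GBP1 given above begin further upstream, at 89022894 and 89065360, and both matches lie inside them. It reads TTTCAGTTTC in GBP3 and GBP1, and TTTCAATTTC in GBP4. Of all 35116 promoters in the RefSeq table, 3.57% hold the motif on either strand. Of the 5 GBP windows in that table, those of GBP1, GBP3 and GBP4 held it, and those of GBP6 and GBP7 did not. The window of GBP3 also holds TTCCTTGAA, a match to the gamma-activated sequence TTCNNNGAA, 15 bases before the RefSeq start and not overlapping the first match. That motif was found in 7.66% of all promoters and in no other GBP window. The RUNX motif TGTGGT, found in 13.1% of all promoters, and the Ikaros motif TGGGAA, found in 24% of them, or their reverse complements, were not in the GBP windows of the table, which covered GBP1, GBP3, GBP4, GBP6 and GBP7. The GBP3 and GBP1 windows align over 156 columns with 75% of the bases identical. GBP2 and GBP5 were not looked at in this way. A match is a stretch of letters and no evidence that a factor binds there.

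GBP3 was highest with both drugs together. It was at 2.74, 3.09 and 2.62 RPKM in the DMSO replicates (mean 2.82 ± 0.243, SD, n = 3), from 291, 316 and 189 reads. With LEN it was at 3.45, 3.21 and 3.36 RPKM (3.34 ± 0.122, n = 3), from 227, 331 and 328 reads. With AI-10-104 alone it was at 2.97, 2.68 and 3.05 RPKM (2.90 ± 0.193, n = 3), from 229, 268 and 239 reads.

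In the combination GBP3 reached 3.61, 3.76 and 3.63 RPKM (3.66 ± 0.0813, SD, n = 3), from 237, 208 and 251 reads. All 3 combination samples lay above all 9 other samples, a pattern that 5.2% of the 11241 genes tested also had. The LEN samples lay between the combination and the other 2 conditions with no overlap on either side, and the DMSO and AI-10-104 samples overlapped. How many of all genes had this fuller order was not counted. The order of the means was therefore DMSO, AI-10-104, LEN and LEN+AI-10-104.

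**Figure D1:**
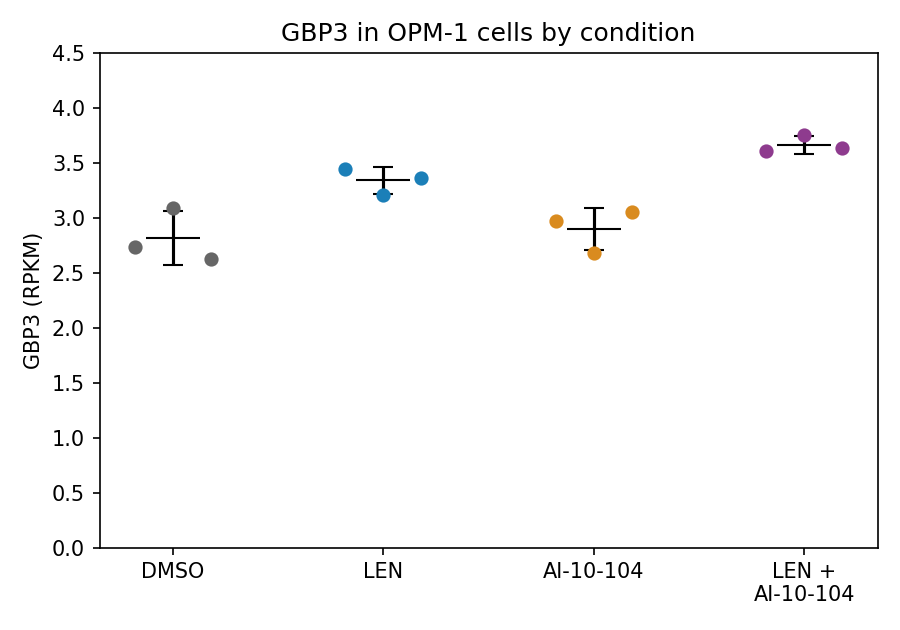
GBP3 in RPKM (vertical axis, from 0) in each of the 12 samples by condition (horizontal axis). Points are samples, replicates 1 to 3 from left to right, and bars give the mean ± SD of 3 samples. The 3 combination samples at 3.61 to 3.76 RPKM sit above all others, and the DMSO and AI-10-104 samples overlap.

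GBP3 rose in the combination relative to DMSO and relative to AI-10-104 alone, and no call was made in the other comparisons. A gene was called where its adjusted p was 0.05 or less and its log2 fold change 0.32 or more in size, by limma's moderated test on log2(RPKM + 0.1) and Benjamini-Hochberg adjustment over all genes tested. Relative to DMSO, the log2 fold change in the combination was 0.37 (SE 0.069, adjusted p = 0.0075), a 1.29-fold difference with a 95% interval of 1.17 to 1.44. In this comparison 2.3% of all genes tested were called up, and GBP3 was number 201 of those 259 by log2 fold change, against a median of 0.47 among them. Relative to AI-10-104 alone the log2 fold change was 0.33 (adjusted p = 0.013), where 3.16% of all genes were called up. That value stood close to the fold threshold. It was 0.28 (adjusted p = 0.019) without AI-10-104 replicate 2 and 0.31 (adjusted p = 0.043) without LEN+AI-10-104 replicate 2, so either omission ended the call through the fold threshold alone.

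For LEN relative to DMSO the GBP3 log2 fold change was 0.24 (adjusted p = 0.16), a 1.18-fold difference with a 95% interval of 1.06 to 1.31, and no call was made although the samples did not overlap. In that comparison 0.587% of all genes were called up. For AI-10-104 relative to DMSO it was 0.04 (adjusted p = 0.77, 95% interval of the log2 value −0.11 to 0.19), or 0.10 (adjusted p = 0.41) without AI-10-104 replicate 2, against 0.685% of genes called up. The 2 neighbouring steps in the order were not called either. LEN exceeded AI-10-104 by 0.20 on the log2 scale (adjusted p = 0.079, with 2.73% of genes called up), or by 0.15 (adjusted p = 0.18) without AI-10-104 replicate 2, and the combination exceeded LEN by 0.13 (adjusted p = 0.32, with 0.872% of genes called up). The comparisons with DMSO share the same 3 control samples.

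Whether the drugs together gave more than the sum of each alone on the log2 scale was tested as an interaction. For GBP3 the interaction was 0.09 with a 95% interval of −0.13 to 0.30 (adjusted p = 0.69), and 0.03 (adjusted p = 0.86) without AI-10-104 replicate 2. No gene was called for the interaction by limma, 0% of the 11241 tested, while 1621 genes had an unadjusted p under 0.05 and limma's voom on the reads called 3. These data therefore place the GBP3 interaction within that interval and do not show that it is 0.

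GBP4, which is known as an interferon-inducible member of the family, was close to the limit of detection in every condition but had its most reads in the combination. It had 4, 5 and 0 reads in the DMSO replicates, 9, 4 and 2 with LEN, and 5, 5 and 4 with AI-10-104. The combination replicates had 10, 11 and 10 reads, although this condition had the lowest depth. In RPKM the combination samples were at 0.0838, 0.109 and 0.0797, above all 9 others, of which the highest was LEN replicate 1 at 0.0753. With every gene above 0 in any sample tested, 24115 genes, 2.95% had this order. A count of up to 3 reads was taken as the floor of a library, and 2 of the 12 GBP4 values were at or under it.

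Summed over replicates, GBP4 had 31 reads in the combination, 9 in DMSO, 15 with LEN and 14 with AI-10-104. Per read counted on genes, the combination was 5.08 times DMSO (95% interval 2.36 to 12.1), 2.90 times LEN (1.52 to 5.77) and 2.97 times AI-10-104 (1.54 to 6.05). These intervals cover only the counting error of reads pooled over replicates and leave out the spread between replicates. Whether PCR copies of 1 molecule were counted as separate reads is not given in the sources used here. If they were, the intervals are too narrow for counting error as well. LEN was 1.75 times DMSO (0.72 to 4.55) and AI-10-104 was 1.71 times DMSO (0.689 to 4.48), both intervals including no difference.

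Over replicates, GBP4 was called up in the combination relative to DMSO (limma over the 24115 genes, log2 fold change 0.72, SE 0.16, adjusted p = 0.044), where 0.921% of these genes were. The log2 value is on the log2(RPKM + 0.1) scale, which understates the change of a gene this low. The call was not stable. It was lost when any 1 of 10 of the 12 samples was left out, at an adjusted p of 0.0612 to 0.145 (0.064 without AI-10-104 replicate 2), and it was kept without LEN replicate 1 (0.0101) and without LEN replicate 3 (0.0434). The exact two-sided permutation test of the RPKM values gave p = 0.1, the smallest that 3 samples against 3 allow.

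GBP4 was not called in the other comparisons. Relative to LEN the combination differed by 0.52 on the log2 scale (adjusted p = 0.19, with 0.257% of genes called up), and relative to AI-10-104 by 0.55 (adjusted p = 0.090, with 1.07% called up). Both depended on LEN replicate 1, which held 9 of the 15 LEN reads. Without it the difference from LEN was 0.71 (adjusted p = 0.031), while the difference from AI-10-104, in which this sample enters only through the shared estimate of the spread, stayed at 0.55 (adjusted p = 0.032). Without AI-10-104 replicate 2 the difference from AI-10-104 was 0.53 (adjusted p = 0.14). LEN relative to DMSO, AI-10-104 relative to DMSO and LEN relative to AI-10-104 gave log2 differences of 0.21, 0.18 and 0.03 with adjusted p of 0.84, 0.71 and 1, while 0.199%, 0.236% and 1.14% of genes were called up. The interaction was 0.34 with a 95% interval of −0.16 to 0.84 (adjusted p = 0.71). Without AI-10-104 replicate 2, GBP4 differed by 0.19 (adjusted p = 0.70) for AI-10-104 relative to DMSO and by 0.02 (adjusted p = 1) for LEN relative to AI-10-104, and its interaction was 0.32 (adjusted p = 0.66).

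**Figure D2:**
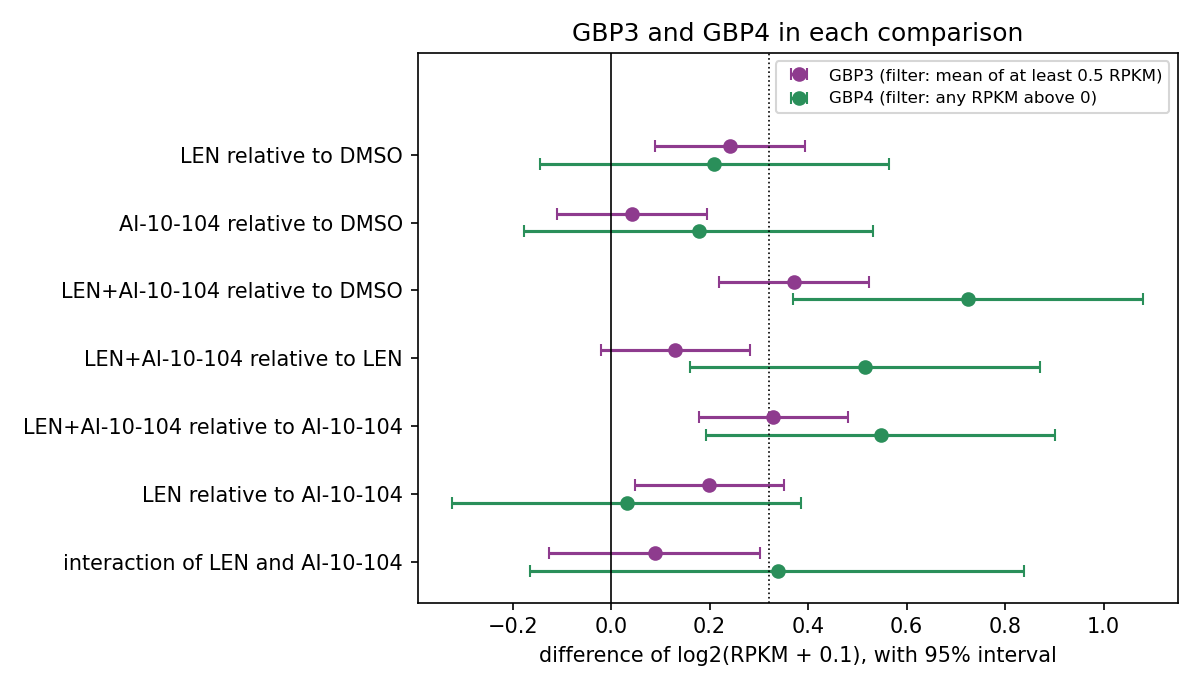
Differences of log2(RPKM + 0.1) (horizontal axis) for GBP3 and GBP4 in the 6 comparisons and the interaction (vertical axis), each point with its 95% interval from limma. The solid line is at 0 and the dotted line at the fold threshold of 0.32. GBP3 stood at 0.37 and GBP4 at 0.72 in the combination relative to DMSO, and the GBP4 intervals are the wider ones.

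GBP1, the prototype of the family, was at the floor in 11 of 12 samples. It had 3, 2 and 0 reads in DMSO, 0, 4 and 1 with LEN, 0, 1 and 0 with AI-10-104 and 0, 2 and 0 in the combination. The 5 reads of DMSO, 5 of LEN, 1 of AI-10-104 and 2 of the combination show no condition in which it was clearly present.

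GBP2 had 0, 2 and 0 reads in DMSO, 2 in each LEN sample, 0, 1 and 3 with AI-10-104 and 0, 0 and 6 in the combination. All 6 combination reads were thus in replicate 3, the only sample above the floor. GBP5, which is known to promote inflammasome assembly, had 1 read in each DMSO sample and 3 reads in the other 9 samples together. None of GBP1, GBP2 and GBP5 was called in any comparison by limma, at adjusted p of at least 0.64. The RPKM differences were not detectable at this depth.

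**Figure D3:**
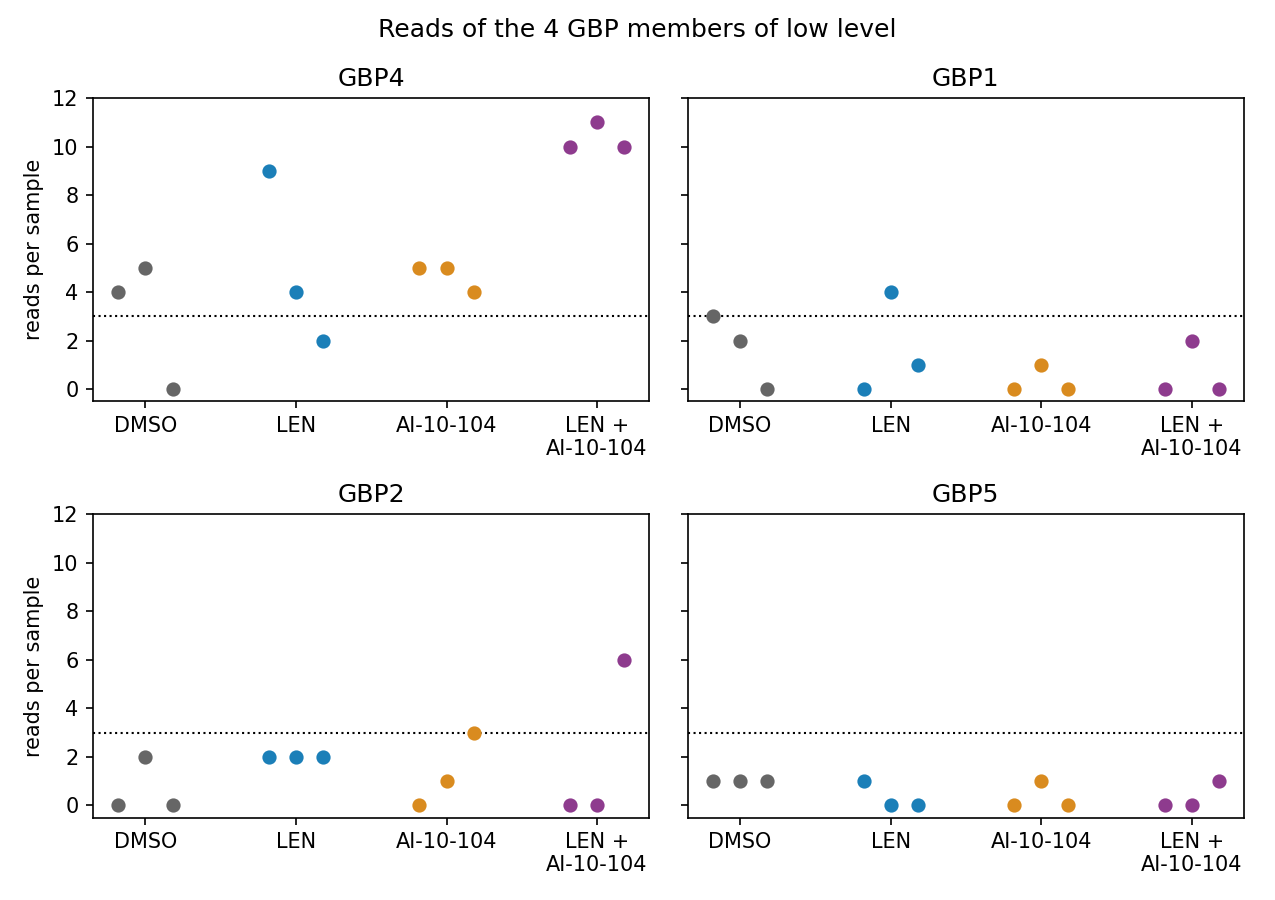
Reads per sample (vertical axis) of GBP4, GBP1, GBP2 and GBP5 in the 4 conditions (horizontal axis), each point a sample, replicates 1 to 3 from left to right. The dotted line is the floor of 3 reads. Only GBP4 has all 3 samples of a condition well above it, at 10, 11 and 10 reads in the combination.

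The other GBP loci of the cluster gave almost no reads. GBP6 had 1 read, in LEN replicate 1, GBP7, which overlaps GBP2, was listed at 0 in all 12 samples, and the pseudogene GBP1P1 had 1 read, in AI-10-104 replicate 2. By contrast, the 8 genes that flank the cluster were all expressed, from a mean of 2.38 RPKM for LRRC8B, a subunit of the volume-regulated anion channel, to 19.2 RPKM for the transcription factor gene GTF2B. None of the 8 was called in any of the 6 comparisons or the interaction, near the 0.587% to 3.16% of all genes called up per comparison. In the combination relative to DMSO their median log2 fold change was 0.0016, against 0.020 over all genes and 0.37 for GBP3. KYAT3 and RBMXL1, which lie next to GBP3 and overlap each other on 1 strand, were at 0.01 and −0.04.

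Genes of interferon gamma signalling, which acts upstream of the GBP genes, were measured in the same samples. Of 16 listed genes, 14 passed the filter. The ligand gene IFNG was itself expressed, at 0.553 to 1.26 RPKM (13 to 44 reads) over the 12 samples, with no call in any comparison. The receptor chain IFNGR1 was at 5.09 to 6.40 RPKM, whereas the chain IFNGR2 was under the filter at 0.0386 to 0.136 RPKM, from 4 to 18 reads. The kinase JAK1 was at 28.2 to 33.8 RPKM.

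In the combination relative to DMSO, 4 of the 14 genes rose and none fell, with a median log2 fold change of 0.18 against 0.020 over all genes, of which 2.3% were called up. They were CIITA, the master activator of MHC class II genes (1.01, adjusted p = 8e-07), IRF1, which binds the response element (0.55, adjusted p = 3.6e-06), IRF8 (0.58, adjusted p = 0.030) and the kinase JAK2 (0.47, adjusted p = 0.023). IRF1 ran from 9.05 to 9.47 RPKM in DMSO, 11.2 to 11.4 with LEN, 10.1 to 10.6 with AI-10-104 and 13.2 to 13.8 in the combination. No 2 conditions overlapped, and the share of all genes with such a separation was not counted. Relative to DMSO, IRF1 was at 0.28 with LEN (adjusted p = 0.0027) and at 0.16 with AI-10-104 (adjusted p = 0.028), so only the fold threshold was missed. IRF8 was at 0.53 with AI-10-104 relative to DMSO and missed only the threshold of the adjusted p (0.062). Only CIITA was called for LEN (0.40) and for AI-10-104 (0.51) relative to DMSO and for the combination relative to LEN (0.61). Of all genes, 0.587%, 0.685% and 0.872% were called up in these comparisons, in that order. The median of the list was 0.20 for LEN relative to DMSO, against −0.00215 over all genes. It was 0.067 for AI-10-104 relative to DMSO, against 0.0081, and 0.022 for the combination relative to LEN, against 0.023. Relative to AI-10-104 alone CIITA, IRF1, IRF9 and SOCS3 were called up in the combination, 4 of 14 against 3.16% of all genes. Also relative to AI-10-104 alone, SOCS3 was called up with LEN, where 2.73% of all genes were. Without AI-10-104 replicate 2 the list had 2 calls for AI-10-104 relative to DMSO, CIITA and JAK2, and the counts of the other 5 comparisons stayed as they were. In the same fit JAK1 was called for the interaction with a negative sign, which is less than the sum of the 2 drugs. That fit called 540 of all genes for the interaction.

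Of 11 listed partners and effectors of GBP proteins, 6 passed the filter. The lipoprotein gene APOL3, whose product permeabilizes bacteria that GBP1 has coated, was at a mean of 1.47 RPKM in DMSO, 2.80 with LEN, 2.03 with AI-10-104 and 2.97 in the combination. It rose relative to DMSO by 0.90 with LEN (adjusted p = 0.00067), 0.45 with AI-10-104 (adjusted p = 0.020) and 0.98 with both (adjusted p = 6.5e-05), and the same calls were made without AI-10-104 replicate 2. CASP1, the inflammatory caspase, was at 1.29, 2.74, 1.11 and 2.32 RPKM in the same order and rose with LEN (1.02, adjusted p = 0.018) and with both drugs (0.78, adjusted p = 0.020). Of all genes, 0.587%, 0.685% and 2.3% were called up relative to DMSO with LEN, AI-10-104 and both drugs. The list medians were 0.27, 0.016 and 0.21 in that order, against −0.00215, 0.0081 and 0.020 over all genes. In the combination relative to LEN, APOL3 (0.08) and CASP1 (−0.24) were not called, where 0.872% of all genes were called up. CASP4, the caspase that binds lipopolysaccharide, was at 13.6 to 18.1 RPKM with no call. RNF213, PIM1 and FURIN were tested and had no call in any comparison either. PIM1 was at −0.21 in the combination relative to DMSO (adjusted p = 0.049), short of the fold threshold. Downstream, GSDMD, which encodes the pore protein, was listed at 0 in all 12 samples, and CASP5, NLRP3 and PYCARD had 4 reads or fewer each in all.

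**Figure D4:**
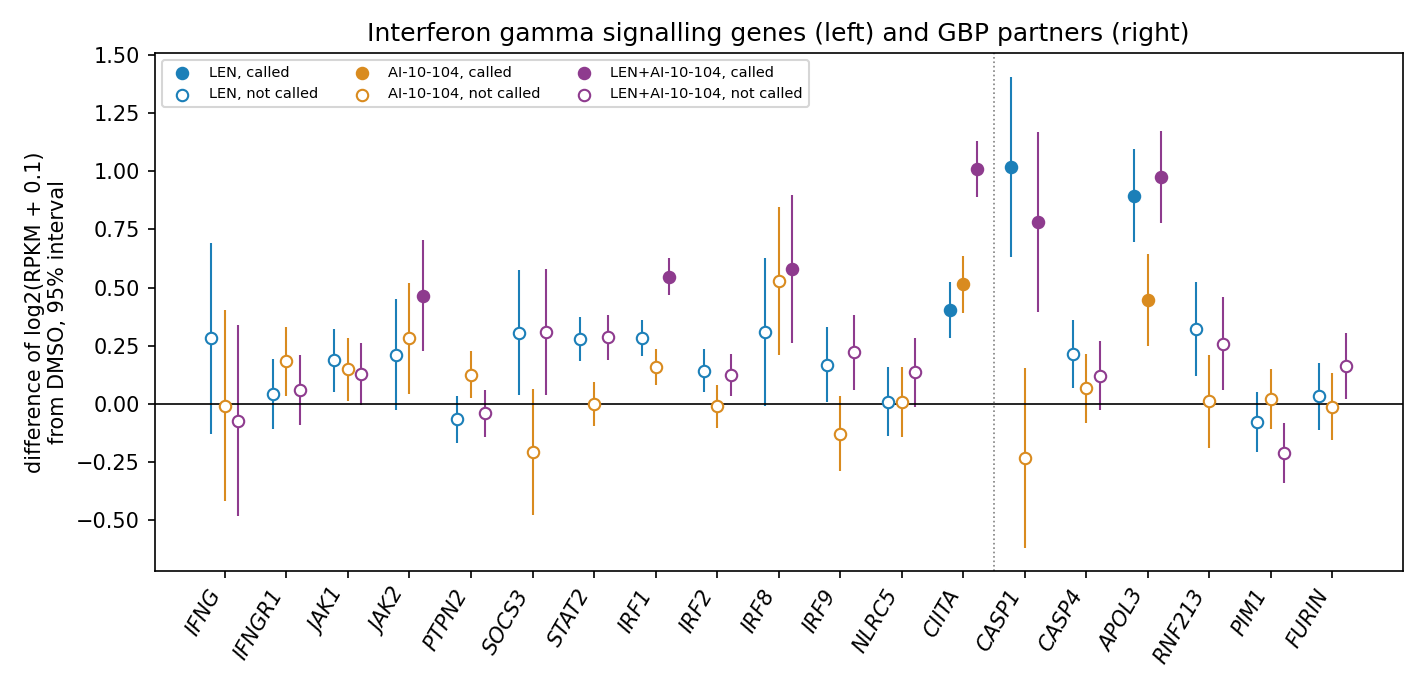
Differences of log2(RPKM + 0.1) from DMSO (vertical axis, with 95% intervals from limma) for 13 of the interferon gamma signalling genes (left of the dotted line) and the 6 GBP partners and effectors (right), all of which passed the filter. Filled points were called and open points were not. CIITA and APOL3 were called in all 3 comparisons, and IRF1, IRF8 and JAK2 with both drugs only. With each drug alone IRF1 missed only the fold threshold. With AI-10-104 alone IRF8 was at 0.53 and missed only the threshold of the adjusted p (0.062 by limma). JAK2 was called with AI-10-104 alone when AI-10-104 replicate 2 was left out.

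Of 5 genes of prenylation and CaaX processing, 4 were tested and none was called. FNTA, PGGT1B, RCE1 and ICMT had means of 1.46 to 41.6 RPKM, and FNTB was listed at 0 in all samples. FNTB is a gene of general use that the read-through gene CHURC1-FNTB overlaps on the same strand, so a gene listed at 0 in this table is not shown to be silent. Of 9 related large GTPases 5 were tested and none was called, the interferon-inducible MX1 among them (0.24 in the combination relative to DMSO, adjusted p = 0.25). The absence of calls among the prenylation genes and the GTPases was near the 0.587% to 3.16% of all genes called up per comparison. Without AI-10-104 replicate 2, IRGQ was called up in the combination relative to AI-10-104. Of 26 antiviral interferon effectors in the table, 11 were tested and 5 rose in the combination relative to DMSO, EPSTI1, IFI6, IFIH1, IFITM1 and NMI, against 2.3% of all genes called up, with a median over the list of 0.59. IFIH1 was the only call of that list for LEN relative to DMSO, for AI-10-104 relative to DMSO and for the combination relative to LEN. The GBP3 log2 fold change of 0.37 lay under the values of all 5, which ran from 0.58 to 0.85 but had been selected by the call. The tested effectors that were not called in that comparison ran from −0.28 to 0.64, on both sides of GBP3. Relative to AI-10-104 alone, BST2, EPSTI1, IFI6, IFITM1 and NMI were called up in the combination, against 3.16% of all genes. BST2 and IFITM1 were called up with LEN relative to AI-10-104, against 2.73%. Without AI-10-104 replicate 2, ISG15 was also called up in the combination relative to DMSO and to AI-10-104, and NMI with LEN relative to AI-10-104. OAS2 and OASL, like GBP4 under the filter, were called up in the combination relative to DMSO when all 24115 genes were tested (0.93 and 1.13). Of these genes 0.921% were called up, and no other antiviral effector under the filter was. The drug targets CRBN, IKZF1, IKZF3, RUNX1, RUNX2, RUNX3 and CBFB were all at 5.54 RPKM or more in every sample. Of these 7, RUNX1 was called down with AI-10-104 relative to DMSO (−0.35, adjusted p = 0.0087), where 1.09% of all genes were called down, and without AI-10-104 replicate 2 IKZF3 was called down as well. RUNX1 (0.32) and IKZF3 (0.47) were called up for LEN relative to AI-10-104, where 2.73% of all genes were. Relative to DMSO, RUNX1 was at −0.02 with LEN and −0.35 with AI-10-104, and IKZF3 at 0.17 and −0.30.

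The genes whose profile was most like that of GBP3 were GPRC5D, ZNF692 and TNS3. Likeness was the root mean square difference, over the 12 samples, between the genes' log2 values after subtraction of each gene's mean. It was 0.069 for GPRC5D, a plasma cell surface receptor, 0.071 for ZNF692 and 0.071 for TNS3, against a median of 0.19 over all genes tested and 0.16 for a flat profile. GPRC5D had means of 16.5 RPKM in DMSO, 19.6 with LEN, 17.4 with AI-10-104 and 20.7 in the combination. All 3 genes were selected for this likeness, so their differences are a description only.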

How the data were processed

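OPM-1 RNA (poly(A), 12 samples) was sequenced, and the authors deposited RPKM values per gene beside gene lengths, after alignment to GRCh38 with STAR. Per the labels FastQC, Cuffnorm and DESeq2 were also used. Their versions, the annotation and the handling of reads matching several genes are not given in the sources used here. The table is named for FPKM but holds RPKM. Multiplied by gene length, the values of a sample were integer multiples of its smallest step (100% of values, within 0.1 reads), which gave the reads. Because the deposited values are normalized, no count model served as the main test, and limma's voom on the recovered reads was an alternative.

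Groups came from the sample titles. The 5 members and all gene lists were chosen with earlier results of these data known. All 12 samples were fitted with limma 3.58.1 (R 4.3.3) on log2(RPKM + 0.1), with a variance trend and Benjamini-Hochberg adjustment, for genes averaging 0.5 RPKM or more (11241), or any value above 0 (24115) for the low members. Named genes are the members, the 3 genes nearest to GBP3 and listed genes that were called or bear on the source of the signal. The levels given for JAK1, CASP4, GTF2B, LRRC8B, KYAT3, RBMXL1, MX1 and the drug targets were added after the values were seen. Intervals are at 95%, exact Poisson or conditional binomial for reads. Python 3.11.15, pandas 2.3.3 and scipy 1.17.1 were used. The procedure was run on simulated data with the same spread for every gene and no library that stood apart, unlike the real samples. It called 72 of 100 genes changed by 0.5 on the log2 scale and 95 of 100 changed by 1. It also called 3 unchanged genes. No per-sample column was left unused. Of the interferon gamma signalling list, 1 gene is counted but not reported here by itself. Replicates were described as biological by the study, with no batch or day named.

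Alternatives were a pseudocount of 1, other filters (any RPKM above 0, a mean of at least 10 reads), quantile normalization, median-ratio rescaling, voom on the reads, the replicate number as a block, fits of only the 2 conditions compared, and leaving out each sample.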

Additional observations from a re-analysis of the deposited data

How the results depend on the processing

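No GBP result changed direction past the threshold in any alternative run. The GBP3 call in the combination relative to DMSO was made in 6 of 8 alternatives (adjusted p 0.00705 to 0.0278 over the 8) and in all 12 fits without a sample (log2 fold change 0.32 to 0.44). Of the members above the filter, the number called in that comparison was 1 as reported, 0 with a pseudocount of 1, 0 with quantile normalization and 2 with any RPKM above 0, where GBP4 was the second. Relative to AI-10-104 it was 1 as reported and 0 with a pseudocount of 1, with median-ratio rescaling and with quantile normalization, and 0 to 1 with each sample left out. In all of these the adjusted p of GBP3 stayed at or under 0.05 and only the fold threshold was missed, at log2 values of 0.26 or more.

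Of the 4 members under the filter, the number called in the combination relative to DMSO was 1 as reported, 0 with a pseudocount of 1 (GBP4 at 0.10), 0 with quantile normalization (adjusted p = 0.069), 0 with the compared conditions only (adjusted p = 0.085), and 0 to 1 with each sample left out. Relative to LEN and to AI-10-104 it was 0 as reported and 0 to 1 with each sample left out. The cause was not tested.

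The labels do not say that equal replicate numbers mark shared cultures or days, and the samples were not treated as paired. Deviations from the condition means correlated at 0.052 on average over the 18 pairs with the same number and at −0.026 over the 36 pairs with different numbers. Only 2 of the 18 pairs exceeded 0.1, while 10 of 12 samples correlated best with a sample of their own number, a hint from the data of shared deviations. With the replicate number as a block the adjusted p in the combination relative to DMSO was 0.014 for GBP3 and 0.037 for GBP4, with 1 member called above the filter and 1 under it, and no call of a member changed.

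Depth limits GBP1, GBP2, GBP4 and GBP5, whose values rest on 0 to 11 reads a sample.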
